A study of Mus musculus with 24 samples.

Results

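The genes described here encode 10 proteins that modify, fold, trim or crosslink collagen, and they were taken by name from the 51138 genes of the count table. They are the lysyl oxidases Lox, Loxl1, Loxl2 and Loxl3, the lysyl hydroxylases Plod1 and Plod2, the prolyl hydroxylase subunits P4ha1 and P4ha3, the collagen chaperone Serpinh1 and the procollagen processing factor Pcolce. All 10 were among the 30564 genes that were tested, those whose counts summed to 10 or more. The smallest count of any of them in a sample was 53. Bulk RNA of whole constructs was sequenced from male and female Foxp3-DTR/eGFP mice, 8 to 9 weeks old at surgery and killed 2 weeks later, with 4 samples in each of 6 groups. Constructs of biphasic calcium phosphate granules, a ceramic bone substitute, lay in pockets under the skin of the back and held no cells (BCP), bone marrow mesenchymal stromal cells of wild-type C57BL/6J mice (BCP+MSC), such cells kept beforehand in resolvin E1 (BCP+MSC+RvE1), or such cells cocultured with activated regulatory T cells, Treg (BCP+MSC+Treg). All hosts carry the diphtheria toxin receptor under the Foxp3 gene, whose cells are the Treg, and in 2 further groups the mice with BCP+MSC constructs were given the toxin repeatedly, without ((dep)BCP+MSC) or with ((dep)BCP+MSC+RvE1inj) daily resolvin E1 injected at the implant. Resolvin E1 is a lipid mediator of the resolution of inflammation. No group analysed here received toxin without the receptor, or toxin with a cell-free construct, so the toxin and the loss of Treg cannot be told apart.

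Collagen chains are hydroxylated on proline and lysine while they enter the endoplasmic reticulum. Prolyl hydroxylation keeps the triple helix stable at body temperature, and lysyl hydroxylation sets which crosslinks can form. The chaperone HSP47, the product of Serpinh1, binds the folded helix inside the cell. Outside the cell the end peptides of procollagen are cut off, and lysyl oxidases then oxidise lysine side chains so that fibres crosslink, a step on which the strength of granulation tissue and of bone matrix depends.

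Library totals lay between 8482701 and 144417743 counts, a 17-fold range, and expression is given as CPM, counts divided by library size after TMM scaling and put on a common scale, with the SD over 4 samples. The shallowest library was (dep)BCP+MSC replicate 1, which was also highest in skin and hair markers, with 567 CPM summed over 12 genes against 11.6 to 147 CPM in the other 23 samples. BCP+MSC replicate 2 had 379 CPM summed over 15 skeletal muscle markers, whereas the other samples had at least 4760 CPM. The implants are labelled as subcutaneous tissue only. Stromal and macrophage markers were abundant in every group, while 7 osteoblast markers summed to 17.4 to 44.8 CPM. Foxp3, the gene of the cells the toxin removes, was at 0.933 ± 0.24 CPM in BCP+MSC, 0.985 ± 0.542 CPM in (dep)BCP+MSC and 0.705 ± 0.315 CPM in (dep)BCP+MSC+RvE1inj (SD over 4 samples), and these ranges overlapped. It rests on 4 to 83 counts per toxin-treated sample. The study reports the loss of Treg by flow cytometry of lymph nodes and spleen, not of the constructs. Whether toxin-treated and other mice were operated on, extracted and sequenced side by side is not given in the sources used here, so toxin and any such difference cannot be told apart.

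RefSeq promoter sequence on GRCm38.p6 was matched for 5 of the 10 genes. The windows of Serpinh1 and Pcolce are shown because these genes moved together across the samples. That of Plod1 is shown because over all samples it did not move with them (correlations of log2 CPM of -0.09 and 0.07). After the group means were removed it did (0.62 and 0.76). Each runs 5′ to 3′ on the gene's own strand, the minus strand in each case, and ends at the transcription start, except for Pcolce, whose last 83 bases before the start lie in an annotated exon and are left out. Serpinh1 is at chr7:99353240-99353489, Pcolce at chr5:137611488-137611654 and Plod1 at chr4:147936777-147937026. The Pcolce window lies inside the gene as counted (chr5:137605103-137613784), so its RefSeq start is not the outermost annotated one. The windows of Serpinh1 and Plod1 lie outside their genes as counted. Capitals, of which the Pcolce stretch has none, mark matches on either strand to GGGCGG (the Sp1 box), ACGTG (the core of hypoxia response elements), TATAAA (the TATA box), CCAAT (the CCAAT box) or GAANNTTC (a pair of heat shock units).
Serpinh1: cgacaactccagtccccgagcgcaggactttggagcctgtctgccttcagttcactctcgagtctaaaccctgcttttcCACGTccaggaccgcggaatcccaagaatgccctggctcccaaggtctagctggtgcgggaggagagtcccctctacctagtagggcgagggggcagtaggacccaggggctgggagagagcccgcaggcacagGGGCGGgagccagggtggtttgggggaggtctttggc
Pcolce: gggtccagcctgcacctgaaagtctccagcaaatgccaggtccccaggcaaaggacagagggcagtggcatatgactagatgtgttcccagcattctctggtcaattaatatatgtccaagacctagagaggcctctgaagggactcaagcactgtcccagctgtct
Plod1: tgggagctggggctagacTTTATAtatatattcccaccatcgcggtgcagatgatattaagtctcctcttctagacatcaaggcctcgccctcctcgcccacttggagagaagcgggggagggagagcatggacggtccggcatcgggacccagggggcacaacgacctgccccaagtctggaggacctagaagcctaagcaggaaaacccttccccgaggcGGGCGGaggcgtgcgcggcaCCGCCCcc
In the full window of 250 bases GGGCGG was found in all 5 promoters, once in Serpinh1, 37 bases before the start, once in Pcolce, inside the exonic stretch left out above, and at 2 places in Plod1. Of 32851 mouse promoters of the same length, 32.7% hold it. ACGTG occurred in Serpinh1, 171 bases before the start, and in P4ha1, against 16.6% of all promoters. Of the 5 promoters only Plod1 had TATAAA (12.4% of all), on the opposite strand and 232 bases before the start. CCAAT (33.8% of all) and GAANNTTC (6.69%) were in none of the 5, which says only that these letters are absent from these windows.

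Per kilobase of exon, Serpinh1 was the most abundant of the 10 transcripts, with 357 CPM per kb on average over the 24 samples. Lox followed with 96.8, Pcolce with 79.2, Loxl1 with 56.2, Loxl2 with 55.1 and P4ha1 with 45.1 CPM per kb. Plod1 (27.3), Loxl3 (22.4), Plod2 (14.0) and P4ha3 (6.24 CPM per kb) were lower. Between the highest and the lowest sample, P4ha3 spanned 17.5-fold and Serpinh1 12.4-fold, whereas Loxl1 spanned 2.98-fold and Plod1 2.02-fold. Thus over all 24 samples the chaperone was the most abundant of these transcripts and had 1 of the widest spans, and Plod1 had the narrowest. In samples without toxin Serpinh1 ran only from 748 to 1460 CPM, against 118 to 565 CPM with toxin. Lox ran from 131 to 882 CPM and Plod1 from 124 to 219 CPM without toxin.

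**Figure D1:**
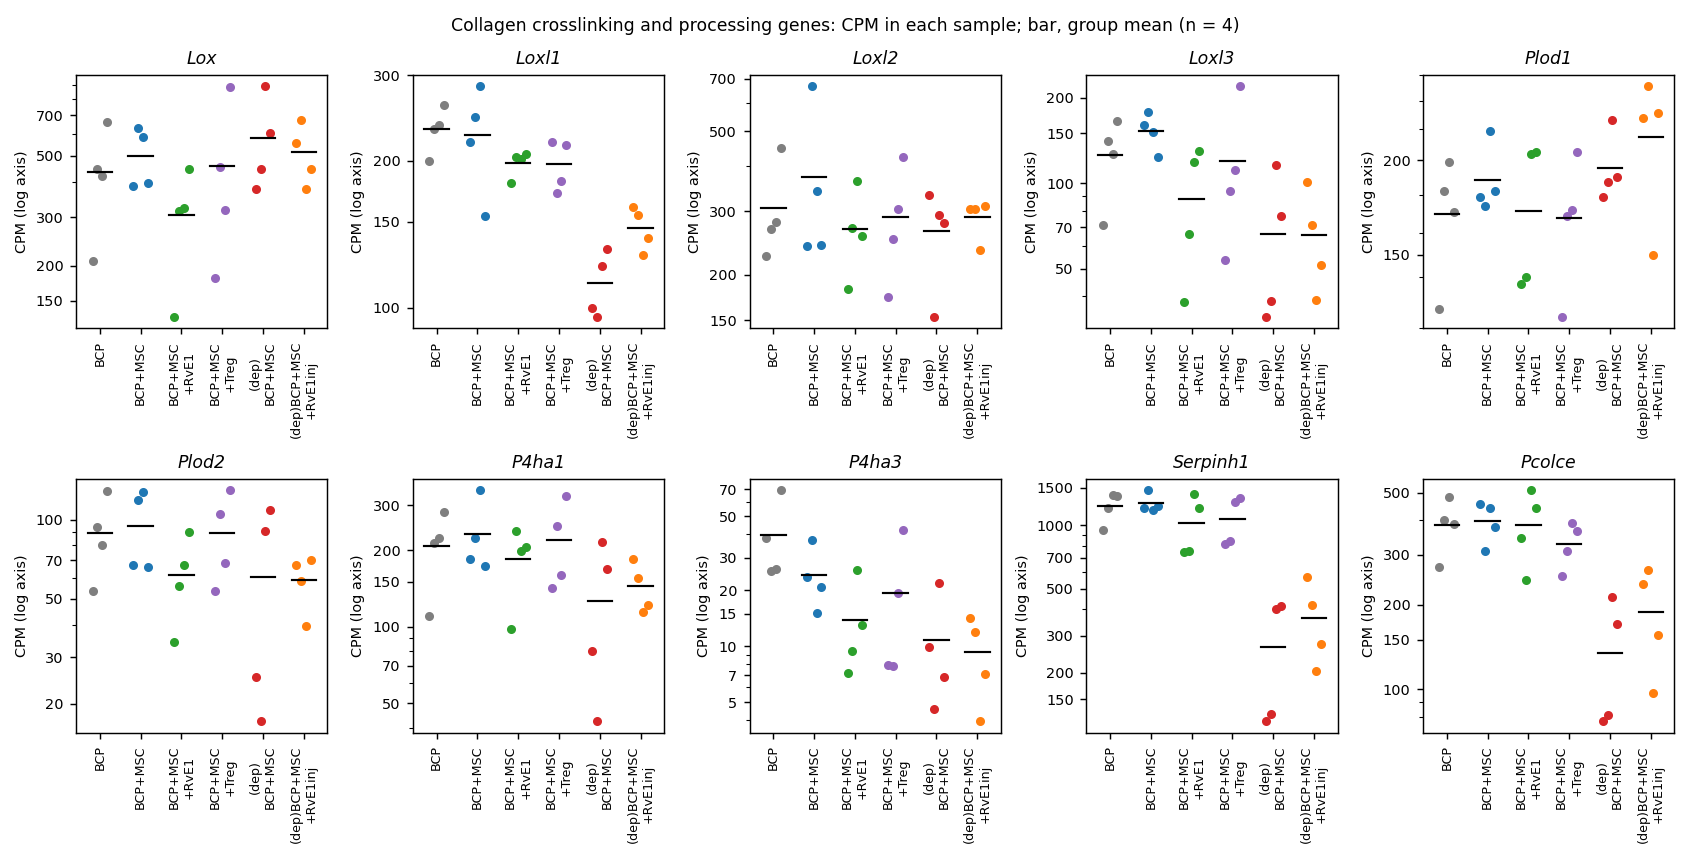
CPM of each of the 10 genes (log axis, one scale per panel) in the 24 samples by group, with a bar at the group mean. The 8 samples of toxin-treated mice lie between 118 and 565 CPM for Serpinh1, below all 16 others (748 to 1460 CPM), whereas for Lox the 6 groups overlap.

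The comparison of (dep)BCP+MSC with BCP+MSC asks how the construct's tissue differs in mice given the toxin to deplete Treg. Serpinh1, Pcolce and Loxl1 fell, with log2 fold changes of -2.26, -1.55 and -1.01, whereas the estimates for Lox and Plod1 were 0.22 and 0.05. Of the 10 genes, 3 were lower and 0 higher at an adjusted p under 0.05 (edgeR quasi-likelihood test, Benjamini-Hochberg adjustment over all genes), against 3.92% of all genes tested in either direction and 2.17% lower. At an unadjusted p under 0.05, 5 were lower and 0 higher, against 20.3% of all genes in either direction and 10.7% lower. The median log2 fold change of the 10 genes was -0.94, and that of all genes -0.04. Since whole constructs were sequenced, fewer cells of a type and less RNA per cell cannot be told apart. The count of 3 was the same without (dep)BCP+MSC replicate 1, with a skin covariate and with samples under 20000000 counts left out. With only the 2 groups compared in the fit it was 1, Serpinh1, and the calls of Loxl1 and Pcolce were lost (adjusted p = 0.0878 and 0.068).

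**Figure D2:**
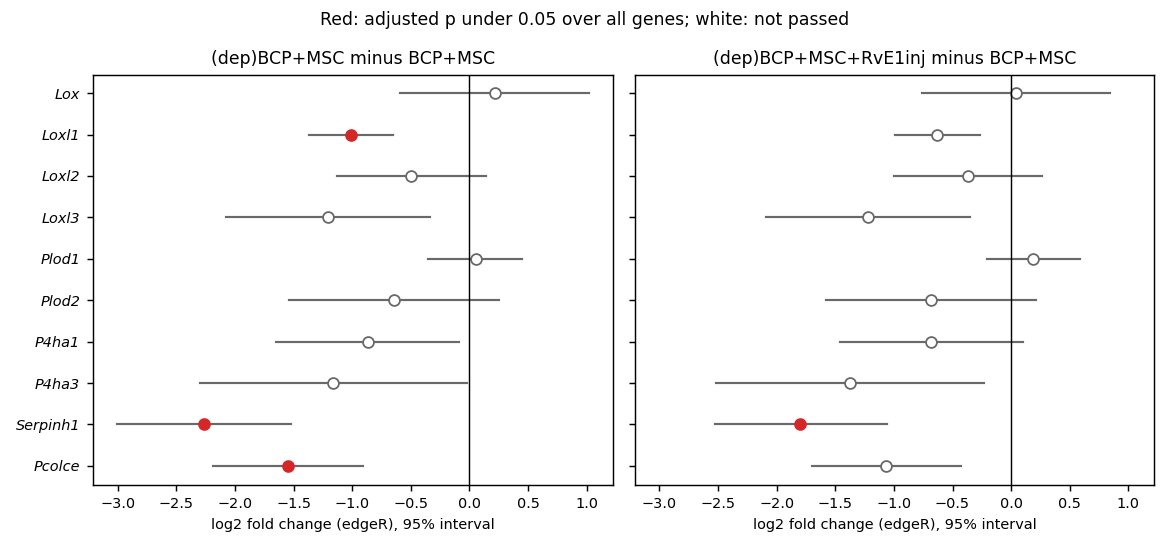
Log2 fold change of each gene against BCP+MSC (edgeR, points) with 95% confidence intervals (lines), for (dep)BCP+MSC on the left and (dep)BCP+MSC+RvE1inj on the right. Filled red points passed an adjusted p of 0.05 over all genes: Serpinh1, Pcolce and Loxl1 on the left, Serpinh1 on the right. Both panels share the BCP+MSC samples.

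Of the lysyl oxidases, Lox (ENSMUSG00000024529.13) is the founding member of the family and a main crosslinker of fibrillar collagen and elastin. It was at 379, 448, 890 and 604 CPM in (dep)BCP+MSC, 556, 671, 380 and 448 CPM in (dep)BCP+MSC+RvE1inj, and 388, 627, 582 and 399 CPM in BCP+MSC. The groups overlapped, with a log2 fold change of 0.22 for (dep)BCP+MSC (95% interval -0.59 to 1.02; edgeR, adjusted p = 0.821) and 0.04 for (dep)BCP+MSC+RvE1inj (-0.76 to 0.84, adjusted p = 0.99). These intervals leave room for a change of up to about 1 on the log2 scale in (dep)BCP+MSC. The other groups spread widely, from 209 to 662 CPM in BCP, 131 to 448 CPM in BCP+MSC+RvE1 and 181 to 882 CPM in BCP+MSC+Treg.

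Loxl1 (ENSMUSG00000032334.10, chr9:58287738-58313186, GRCm38), which is best known for its part in elastic fibres, was at 100, 95.7, 122 and 132 CPM in (dep)BCP+MSC and at 219, 246, 285 and 154 CPM in BCP+MSC. All 4 depleted samples were below all 4 BCP+MSC samples. The log2 fold change was -1.01 (SE 0.18; edgeR, adjusted p = 0.00247). With resolvin E1 injection Loxl1 was at 161, 155, 128 and 139 CPM, which overlaps the lowest BCP+MSC sample, and the log2 fold change of -0.63 (SE 0.18) did not pass the adjusted threshold (adjusted p = 0.111). The 12 other samples without toxin had 172 to 260 CPM.

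Loxl2 (ENSMUSG00000034205.16, chr14:69609068-69695834), which crosslinks type IV collagen of basement membranes among other substrates, was at 334, 153, 293 and 279 CPM in (dep)BCP+MSC and at 241, 667, 342 and 242 CPM in BCP+MSC, where replicate 2 stood highest. The groups overlapped and the log2 fold change was -0.50 (SE 0.32, edgeR, adjusted p = 0.404). Loxl3 (ENSMUSG00000000693.10, chr6:83034173-83052562) was at 33.8, 38.6, 116 and 76.6 CPM in (dep)BCP+MSC, 101, 71.5, 38.7 and 51.5 CPM in (dep)BCP+MSC+RvE1inj, and 160, 178, 151 and 124 CPM in BCP+MSC. Both depleted groups were below BCP+MSC in every sample, yet their log2 fold changes of -1.21 (SE 0.44, adjusted p = 0.128) and -1.22 (SE 0.44, adjusted p = 0.221) did not pass the adjusted threshold of edgeR. Without toxin the lowest Loxl3 values were 38.0 CPM with RvE1 priming, 53.6 CPM with Treg coculture and 71.0 CPM on cell-free granules. Exons of Loxl2 and Loxl3 overlap other genes (Gm27177 and Mir6950, and Htra2), and the recorded counting command sets no strand, so reads in those stretches cannot be attributed.

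Neither lysyl hydroxylase gene passed the threshold, and the difference between the pair was not tested. Plod1 (ENSMUSG00000019055.15, chr4:147909753-147936767), which hydroxylates lysines in the helix, was at 179, 187, 226 and 190 CPM in (dep)BCP+MSC and at 179, 174, 219 and 182 CPM in BCP+MSC. Its log2 fold change was 0.05 with a 95% interval of -0.35 to 0.45 (edgeR, adjusted p = 0.93), the narrowest interval after that of Loxl1. Plod2 (ENSMUSG00000032374.14, chr9:92542223-92608428), which hydroxylates lysines in the telopeptides and so favours stable crosslinks, was at 25.3, 17.2, 90.4 and 109 CPM in (dep)BCP+MSC, at 67.0, 58.6, 39.6 and 70.3 CPM in (dep)BCP+MSC+RvE1inj, and at 67.0, 119, 127 and 66.0 CPM in BCP+MSC. Within (dep)BCP+MSC, replicates 1 and 2 were thus at most 25.3 CPM and the samples numbered 4 and 5 at least 90.4 CPM, and the group overlapped BCP+MSC. The log2 fold change was -0.65 (SE 0.46, edgeR, adjusted p = 0.452).

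P4ha1 and P4ha3 encode catalytic subunits of prolyl 4-hydroxylase, which makes the hydroxyproline of the helix. P4ha1 (ENSMUSG00000019916.14, chr10:59323296-59373304) was at 80.2, 42.4, 216 and 168 CPM in (dep)BCP+MSC and at 185, 223, 344 and 173 CPM in BCP+MSC, with the same samples low as for Plod2. Its log2 fold change was -0.87 (SE 0.40; edgeR, unadjusted p = 0.0398, adjusted p = 0.222). P4ha3 (ENSMUSG00000051048.17, chr7:100285520-100319699), the scarcest of the 10 transcripts, was at 9.97, 4.58, 21.9 and 6.82 CPM in (dep)BCP+MSC, 14.2, 11.9, 3.95 and 7.05 CPM in (dep)BCP+MSC+RvE1inj, and 23.6, 37.5, 15.2 and 20.8 CPM in BCP+MSC. Only the injected group lay wholly below BCP+MSC, with a log2 fold change of -1.37 (SE 0.58, edgeR, adjusted p = 0.301), against -1.16 (SE 0.58, adjusted p = 0.264) for (dep)BCP+MSC. Neither passed the adjusted threshold.

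Serpinh1 (ENSMUSG00000070436.12, chr7:99345376-99353239, minus strand), the gene of the collagen chaperone, had the largest estimate of the 10. It was at 118, 127, 401 and 412 CPM in (dep)BCP+MSC and at 1210, 1460, 1180 and 1230 CPM in BCP+MSC, without overlap. The log2 fold change was -2.26 (SE 0.38, 95% interval -3.01 to -1.52; edgeR, adjusted p = 0.00149), a model estimate of a 4.8-fold lower level. The other groups without toxin had 748 to 1410 CPM. Within (dep)BCP+MSC the lower pair, replicates 1 and 2, had 8482701 and 42109761 counts, and the upper pair 85519916 and 48647413.

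Pcolce (ENSMUSG00000029718.14, chr5:137605103-137613784), whose product speeds the removal of the C-terminal propeptide by BMP1, was at 77.0, 81.3, 212 and 170 CPM in (dep)BCP+MSC and at 454, 310, 442 and 377 CPM in BCP+MSC. All depleted samples were lower, with a log2 fold change of -1.55 (SE 0.33; edgeR, adjusted p = 0.0074). The 12 samples of the other groups without toxin had 244 to 509 CPM, above every (dep)BCP+MSC sample. The Pcolce exons overlap Fbxo24 on the same strand and Gm36266 on the opposite one, and reads in those stretches cannot be attributed.

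The comparison of (dep)BCP+MSC+RvE1inj with BCP+MSC uses the same BCP+MSC samples. Serpinh1 was at 565, 419, 204 and 273 CPM with injection, again below every BCP+MSC sample, and its log2 fold change of -1.80 (SE 0.37; edgeR, adjusted p = 0.0203) passed the threshold. Pcolce, at 236, 266, 97.2 and 156 CPM, was also below BCP+MSC in all 4 samples, but its log2 fold change of -1.07 (SE 0.32, adjusted p = 0.129) did not pass. In all, 1 of the 10 genes was lower and 0 higher, against 0.72% of all genes in either direction and 0.461% lower. At an unadjusted p under 0.05, 5 were lower, against 13.7% of all genes in either direction and 7.2% lower. DESeq2 called 3 of the 10 lower, Serpinh1, Loxl1 and Pcolce, and it called 1112 of all 30564 genes in either direction. Without (dep)BCP+MSC+RvE1inj replicate 3, without its replicate 4 or without BCP+MSC replicate 2 the call of Serpinh1 was lost, at log2 fold changes of -1.60, -1.67 and -1.69 (adjusted p = 0.0997, 0.112 and 0.0779), and with samples under 20000000 counts left out it was -1.33 (adjusted p = 0.378).

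Whether the injection of resolvin E1 went with a difference was read from (dep)BCP+MSC+RvE1inj against (dep)BCP+MSC. The study's methods name no vehicle injection for (dep)BCP+MSC, so resolvin E1 and the daily injection of fluid cannot be told apart. By edgeR 0 of the 10 genes passed an adjusted p of 0.05, as did 0% of all genes, while DESeq2 called 0 of the 10 and 8 of all genes. At an unadjusted p under 0.05 there was 1, Loxl1, against 7.42% of all genes. Loxl1 had a log2 fold change of 0.38 (95% interval 0.02 to 0.73; edgeR, adjusted p = 0.668), Serpinh1 of 0.47 (-0.25 to 1.18, adjusted p = 0.738) and Pcolce of 0.48 (-0.15 to 1.11, adjusted p = 0.701). All 3 estimates were above 0, the values of both groups overlapped for each gene, and the interval of Serpinh1 covers both a rise of 1 on the log2 scale and a slight fall.

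Among the 4 groups without toxin, the question was whether the stromal cells, or their priming with Treg or resolvin E1, went with other levels of these transcripts. By edgeR 0 of the 10 genes passed an adjusted p of 0.05 in each of the 6 comparisons, as did 0% of all genes, and DESeq2 called 0 of the 10 and 0 to 99 of all genes. At an unadjusted p under 0.05, 0 of the 10 passed for BCP+MSC against BCP (5.06% of all genes), for BCP+MSC+Treg against BCP (7.6%), for BCP+MSC+RvE1 against BCP+MSC (3.26%), for BCP+MSC+Treg against BCP+MSC (2.72%) and for BCP+MSC+Treg against BCP+MSC+RvE1 (2.37%). For BCP+MSC+RvE1 against BCP there was 1 (15.6% of all genes), namely P4ha3, at 7.22, 9.45, 25.9 and 13.1 CPM against 38.3, 25.3, 26.2 and 69.1 CPM in BCP. These values overlap, and the log2 fold change was -1.51 (SE 0.58, edgeR, adjusted p = 0.3). It was -0.74 (adjusted p = 0.924) with samples under 20000000 counts left out and -0.94 (adjusted p = 0.738) with the muscle covariate, neither past an unadjusted 0.05. Against BCP+MSC, all 10 estimates were below 0 both for BCP+MSC+RvE1 (median log2 fold change -0.40; all genes -0.04) and for BCP+MSC+Treg (median -0.22; all genes -0.03), but none passed, and both comparisons share the BCP+MSC samples. Serpinh1 was at 748, 752, 1410 and 1200 CPM with RvE1 priming and at 812, 840, 1280 and 1350 CPM with Treg, so that each of these groups had 2 samples below the lowest BCP+MSC value and 2 within its range.

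The substrates of these enzymes were set beside them. Col1a1, the gene of the α1 chain of type I collagen, was at 7150 ± 2060 CPM in BCP+MSC, 2450 ± 1170 CPM in (dep)BCP+MSC and 2950 ± 1470 CPM in (dep)BCP+MSC+RvE1inj (SD over 4 samples), with log2 fold changes of -1.54 (SE 0.45; edgeR, adjusted p = 0.0503) and -1.28 (SE 0.44, adjusted p = 0.195). Col1a2, the α2 chain, fell by 1.64 on the log2 scale in (dep)BCP+MSC (SE 0.44, adjusted p = 0.0339), and Col3a1, of type III collagen, had a log2 fold change of -1.69 (SE 0.54, adjusted p = 0.078). Of 12 collagen and matrix substrate genes 4 were lower and 0 higher in (dep)BCP+MSC (median log2 fold change -1.38), namely Col1a2 and the type VI collagen genes Col6a1, Col6a2 and Col6a3. With injection 1 of the 12 was lower, Col6a1 (median -1.20).

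Relative to Col1a1 in the same sample, the mean of 8 of the 10 genes was higher in (dep)BCP+MSC than in BCP+MSC, and that of Serpinh1 and Pcolce was lower. Col1a1 itself had a log2 fold change of -1.54 there, while the median of all genes was -0.04. A gene whose own level is unchanged is thus higher relative to Col1a1. The share of all genes that are higher in this way was not counted. For 3 genes, Lox, Loxl2 and Plod1, all 4 depleted samples were above all 4 BCP+MSC samples in this relative measure. Their own log2 fold changes were 0.22, -0.50 and 0.05, with overlapping CPM. How many of all genes separate in this way was not counted. Log2 Lox minus log2 Col1a1 was -2.03 ± 0.51 in (dep)BCP+MSC and -2.38 ± 0.54 in (dep)BCP+MSC+RvE1inj, against -3.83 ± 0.44 in BCP+MSC (SD, n = 4 each), and all 8 toxin samples (-2.86 to -1.47) were above all 16 others, the highest of which was BCP+MSC+Treg at -2.91. The same difference for Plod1 was -3.52 ± 0.60 and -3.63 ± 0.58 against -5.21 ± 0.52 in BCP+MSC, with toxin samples again above all others. Loxl2 was at -3.14 ± 0.44 in (dep)BCP+MSC against -4.36 ± 0.49. Loxl1 (-4.34 against -4.98), Plod2 (-5.63 against -6.26), P4ha1 (-4.41 against -4.96), Loxl3 (-5.27 against -5.52) and P4ha3 (-7.94 against -8.24) had higher means with overlap. Serpinh1 went the other way in (dep)BCP+MSC, at -3.33 ± 0.81 against -2.46 ± 0.26, with overlap in 1 depleted sample at -2.36. For Pcolce the groups overlapped throughout, at -4.20 ± 0.56 against -4.15 ± 0.62. These quantities were chosen after the values were seen and are given without a test.

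**Figure D3:**
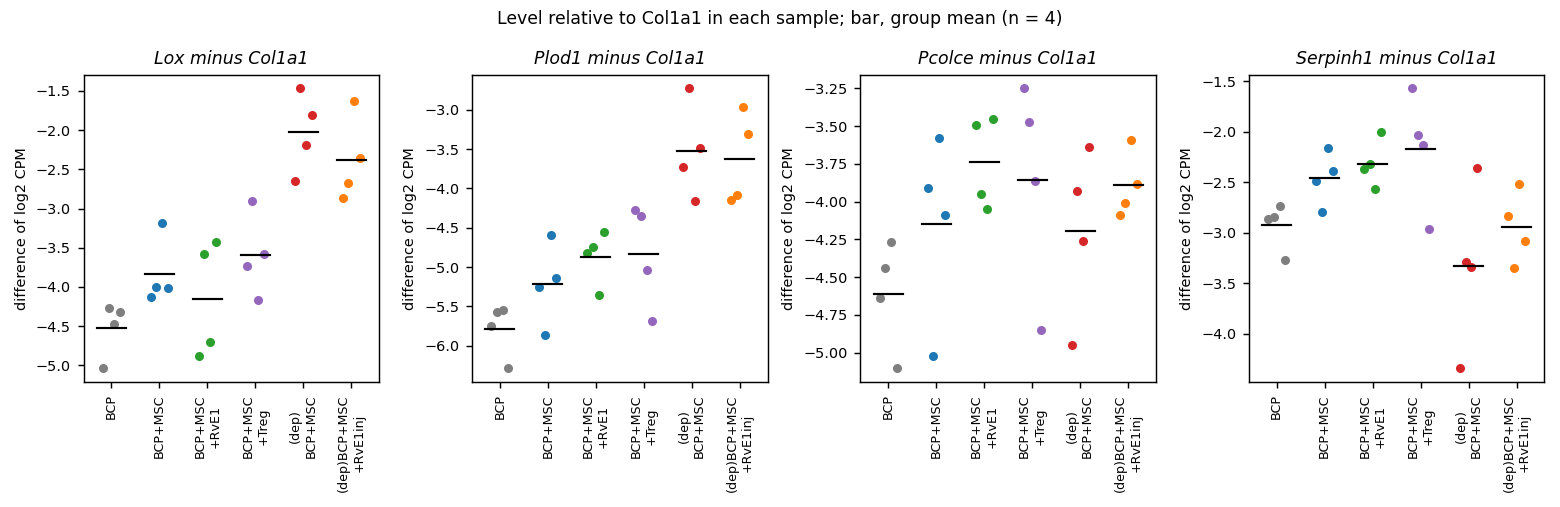
Difference of log2 CPM between Lox, Plod1, Pcolce or Serpinh1 and Col1a1 in each of the 24 samples, with a bar at the group mean. In toxin-treated mice Lox and Plod1 lie above all other samples relative to Col1a1, Pcolce overlaps them, and Serpinh1 averages -3.33 in (dep)BCP+MSC against -2.46 in BCP+MSC. Col1a1 itself had log2 fold changes of -1.54 in (dep)BCP+MSC and -1.28 in (dep)BCP+MSC+RvE1inj against BCP+MSC, which raises unchanged genes in these differences.

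Outside the 10 genes, 24 further collagen processing genes were counted. In (dep)BCP+MSC 7 were lower and 1 higher than in BCP+MSC (median log2 fold change -0.76). Fkbp14 and Fkbp10, which encode prolyl isomerases of the endoplasmic reticulum that help collagen fold, fell by 1.42 and 1.39 on the log2 scale (edgeR, adjusted p = 0.0018 and 0.00364). P3h1, a prolyl 3-hydroxylase, fell by 1.27 (adjusted p = 0.00412). Fkbp14 was at 10.6, 12.8, 18.7 and 17.6 CPM in (dep)BCP+MSC and at 29.6, 57.3, 30.8 and 42.3 CPM in BCP+MSC, without overlap. The other 4 that fell were Creb3l1, a transcription factor of collagen-secreting cells, Plod3, a further lysyl hydroxylase, Crtap, the partner of P3h1, and P3h4, which acts with lysyl hydroxylase 1. Tmem38b, a cation channel subunit of the endoplasmic reticulum, was the only one that rose, by 1.53 (adjusted p = 0.00495), from 27.6, 20.7, 28.6 and 37.2 CPM to 83.4, 80.3, 84.2 and 80.9 CPM. With injection 1 of the 24 was lower and 0 higher, Fkbp14, by 1.19 (adjusted p = 0.0185; median of the 24, -0.66). Of the 24 estimates 22 were below 0 and 2 above. Tmem38b was again above BCP+MSC without overlap, by 1.24, but did not pass (edgeR, adjusted p = 0.0535). P3h1 and Creb3l1 were below without overlap and did not pass either (adjusted p = 0.0664 and 0.0625).

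**Figure D4:**
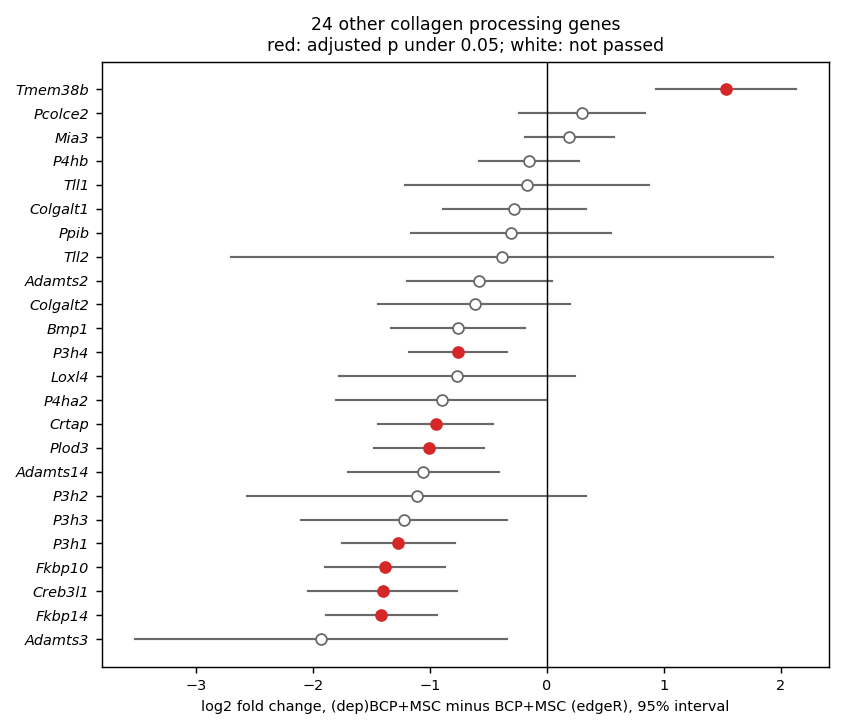
Log2 fold change in (dep)BCP+MSC against BCP+MSC (edgeR, points) with 95% intervals (lines) for 24 collagen processing genes outside the 10 described above. Filled red points passed an adjusted p of 0.05 over all genes: 7 lie below 0 and 1, Tmem38b, above.

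Markers of fibroblasts and other stromal cells moved with these genes. In (dep)BCP+MSC 8 of 10 were lower than in BCP+MSC and 0 higher (median log2 fold change -1.49), among them Fap (-2.03, adjusted p = 9.75e-05), Dpt (-1.94, adjusted p = 0.00364) and Postn (-1.80, adjusted p = 0.00829; edgeR). The remaining 2, named after their values were seen, were Pdgfra (-0.12, adjusted p = 0.859) and Dcn (0.06, adjusted p = 0.938). The 10 markers summed to 1750 to 2630 CPM in (dep)BCP+MSC, 1500 to 3180 CPM in (dep)BCP+MSC+RvE1inj and 3030 to 6270 CPM in BCP+MSC, and their part in the result was not tested. With injection 1 of the 10 was lower, Fap (median -0.94). Set against the mean log2 CPM of these markers, Serpinh1 was at 1.12 ± 0.65 in (dep)BCP+MSC and 2.34 ± 0.28 in BCP+MSC, without overlap, whereas Loxl1 (0.12 ± 0.14 and -0.18 ± 0.61) and Pcolce (0.26 ± 0.43 and 0.65 ± 0.61) overlapped. Lox was at 2.42 ± 0.33 and 0.97 ± 0.40 (SD, n = 4 each), again without overlap and in the opposite direction to Serpinh1. Since the markers themselves were lower in (dep)BCP+MSC, a gene whose own level is unchanged is higher relative to them.

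Of 7 osteoblast markers 2 were lower in (dep)BCP+MSC and 0 higher (median log2 fold change -2.05), both named after their values were seen. Ibsp, the gene of bone sialoprotein, averaged 0.11 CPM against 4.2 CPM in BCP+MSC (edgeR, adjusted p = 0.0314), and Dmp1, of a mineral matrix protein, 0.178 against 0.83 CPM (adjusted p = 0.0321). With injection 1 was lower, Ibsp, at 0.0474 CPM (adjusted p = 0.0456). In both comparisons 5 of the 7 estimates were below 0 and 2, Phex and Alpl, above. Phex had log2 fold changes of 2.54, without overlap, and with injection 2.29 (edgeR, adjusted p = 0.15 and 0.311). The Phex means, and those of Ibsp and Dmp1 given for toxin-treated mice, are near the floor. There 3 counts equal 0.035 to 0.299 CPM, depending on the library. The 7 markers summed to 19.1 to 26.0 CPM in (dep)BCP+MSC, 17.4 to 24.9 CPM in (dep)BCP+MSC+RvE1inj and 20.0 to 44.8 CPM in BCP+MSC. T and B cell markers were higher with injection than in BCP+MSC for 2 of 11 genes, Cd4 (log2 fold change 1.42, adjusted p = 0.0278) and Cd8b1 (2.98, adjusted p = 0.0355), and lower for 0 (median 1.51). Their sum was 89.2 to 145 CPM with injection, 30.7 to 94.3 CPM in (dep)BCP+MSC, where 0 of the 11 passed, and 20.0 to 63.8 CPM in BCP+MSC. The part of either list in the results above was not tested.

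Skin and hair markers were higher in (dep)BCP+MSC for 3 of 12 genes and lower for 0 (median log2 fold change 2.86). Their sum was 45.5 to 567 CPM there and 24.2 to 74.0 CPM in BCP+MSC, with Krt25 at 0 counts in all 4 depleted samples. With the mean of these markers as a covariate the log2 fold changes were -2.01 for Serpinh1 (adjusted p = 0.00469), -1.27 for Pcolce (adjusted p = 0.0276) and -0.97 for Loxl1 (adjusted p = 0.0095, edgeR), and without replicate 1, the sample with most skin RNA, they were -2.02 (adjusted p = 0.00932), -1.37 (adjusted p = 0.0454) and -0.97 (adjusted p = 0.0151). Skeletal muscle markers summed to 24500 to 39300 CPM in (dep)BCP+MSC and 379 to 28600 CPM in BCP+MSC. By edgeR 0 of these 15 markers passed the adjusted threshold. At an unadjusted p under 0.05, 3 were higher and 1 lower, against 20.3% of all genes in either direction. With their mean as a covariate the 3 genes were called as well, at log2 fold changes of -2.18, -1.61 and -0.94 in the same order (adjusted p = 0.00188, 0.00575 and 0.0037).

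Within each of the 24 samples the 10 genes share 1 library, its depth and its tissue makeup. Over these samples the 45 pairs of genes had correlations of log2 CPM from -0.15 to 0.96, with a median of 0.60. The closest pair was Serpinh1 with Pcolce (r = 0.96, and 0.88 after the group means were removed), followed by Plod2 with P4ha1 (0.91 both ways). Loxl1 also went with Serpinh1 (0.89 over all samples, 0.53 within groups). Over all samples Lox was closest to Plod1 (0.75), but within groups it was closest to Loxl3 (0.89). With Serpinh1, Lox had r = -0.04 over all samples, against 0.60 within groups. Plod1 had -0.09 with Serpinh1 over all samples and 0.62 within groups, and 0.07 and 0.76 with Pcolce. Every one of the 45 within-group values was above 0 (0.26 to 0.91). Among 12961 further named genes with a mean log2 CPM above 1, those whose pattern was most like the mean of the 10 standardised genes were P4ha2 (r = 0.946), another prolyl 4-hydroxylase subunit gene, Kctd11 (0.932), Plxnb2 (0.932), a semaphorin receptor, Mki67 (0.928), a marker of dividing cells, and Iqgap3 (0.923).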

How the data were processed

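RNA of whole constructs was extracted with a column kit, made into stranded mRNA libraries and sequenced as paired ends. Per the study's methods and the table's header, the authors aligned reads with HISAT2 2.0.5 and used featureCounts 1.5.2 to count them on GENCODE M13 exons (GRCm38). What they deposited are raw counts per gene for 24 samples, not normalized. The recorded command names 28 alignment files and no strand option. Of these, 4 named RVE beside 4 named R are not analysed here, and the series' design text gives R as BCP+MSC+RvE1. All 24 columns were used, and 50376 of 51138 identifiers were matched to symbols. The numbers 1, 2, 4 and 5 in the (dep)BCP+MSC columns do not all match the sample numbers 1 to 4, which left columns 4 and 5 without a replicate number.

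Counts of the 30564 genes with at least 10 counts in all were fitted in 1 edgeR 4.0.16 quasi-likelihood model (R 4.3.3, TMM, robust, 6 groups, no covariate), with Benjamini-Hochberg adjustment over all genes and an adjusted p under 0.05 as the threshold. The study's tool, DESeq2 1.42.0, was an alternative. Log2 CPM has a prior count of 2, and intervals are at 95%. P-values rest on the spread between the 4 animals within each group, pooled over the 6 groups and with information shared across genes. Other alternatives were RLE scaling, other filters, only the 2 groups compared, the replicate number as a block, covariates for library size, muscle and skin, a depth minimum and each sample left out; the skin covariate and the depth minimum were chosen after seeing the data. Same-numbered samples deviated together, with all 4 correlations over 0.1 (0.14 to 0.62), for 1 comparison only, that of the RvE1-primed with the Treg-cocultured group, where the replicate block called 0 of the 10 genes too. The members and lists were chosen with earlier results of these data known. Every member is named, and from the other collagen processing genes those called, the first by adjusted p. On simulated counts of 29668 genes for (dep)BCP+MSC against BCP+MSC, edgeR recovered 78% of 200 changed genes and called 6 unchanged ones. The changed genes had a mean above 1 CPM and were each set 2 higher or lower on the log2 scale. Smaller changes were not simulated. Sequences are from RefSeq (GRCm38.p6), and figures were drawn with matplotlib 3.10.9.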

Additional observations from a re-analysis of the deposited data

Results flagged for a closer look

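Among the 60 sets of 4 samples (10 genes in 6 groups), 1 held a sample far from the others. Loxl2 was at 234 CPM in (dep)BCP+MSC+RvE1inj replicate 3, against 304 to 311 CPM in the other 3 samples of its group, a gap of 0.93 of the group's range on the log2 scale. Chance flags about 1 in 20 such sets, so the sample is given as a value only.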

How the results depend on the processing

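For (dep)BCP+MSC against BCP+MSC the number of the 10 genes called was 3 in every fit except 2: with only the 2 groups compared it was 1 (Serpinh1, while Loxl1 and Pcolce had adjusted p = 0.0878 and 0.068), and with a replicate block, which uses 22 samples and leaves out (dep)BCP+MSC columns 4 and 5, it was 6. The added calls under the replicate block were Loxl3, Plod2 and P4ha1, at log2 fold changes of -1.92, -1.94 and -1.71, and Lox moved to -0.04. Same-numbered samples of these groups did not deviate together (correlations -0.07 and -0.13 for the 2 shared numbers). With samples left out in turn, Serpinh1, Loxl1 and Pcolce were called in all 8 fits, with log2 fold changes of -2.56 to -2.02, -1.15 to -0.87 and -1.83 to -1.37, and Lox ran from -0.04 to 0.37. For (dep)BCP+MSC+RvE1inj against BCP+MSC the number called was 1, but 3 with DESeq2, 0 with only the 2 groups compared, 0 with samples under 20000000 counts left out, and 0 to 2 with samples left out in turn. There Lox ran from -0.11 to 0.20 and Loxl2 from -0.53 to 0.10, the last without BCP+MSC replicate 2. In the other 7 comparisons 0 of the 10 were called under each alternative run, the replicate block included. The cause of these shifts was not tested beyond the samples each fit uses. Counts of all genes called for (dep)BCP+MSC moved more, from 1198 to 157 with only the 2 groups compared, 2895 with DESeq2 and 2443 with the replicate block, for (dep)BCP+MSC+RvE1inj against BCP+MSC from 220 to 1112 with DESeq2, and against (dep)BCP+MSC from 0 to 8 with DESeq2 and 344 with the replicate block, where Serpinh1 had a log2 fold change of 1.54 (adjusted p = 0.0656) and correlations of same-numbered samples were -0.18 and -0.19. Changes smaller than about 1 on the log2 scale in Lox, Plod2 or P4ha3 cannot be seen with 4 animals per group at these standard errors. Larger ones can be missed as well. P4ha3 estimates of -1.16 in (dep)BCP+MSC and -1.37 in (dep)BCP+MSC+RvE1inj against BCP+MSC (SE 0.58 each) did not pass the adjusted threshold.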
